A study of Homo sapiens with 8 samples.

Results

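Heat shock chaperone genes were followed through a microRNA pulldown in 786-0 cells, an established human line from a clear cell renal carcinoma. The 10 genes were taken by Ensembl ID: HSPA1A, HSPA1B, DNAJB1, HSPH1, HSP90AA1, HSP90AB1, HSPA8, HSPD1, HSPE1 and HSPA5. They are 10 of the 60666 IDs in the deposited count table, and all 10 were among the 17351 genes with enough reads to be tested. Cells received a biotinylated synthetic duplex for 48 hours, the duplex was retrieved, and the RNA recovered with it was sequenced. The groups were miR-2355-5p (2 libraries), miR-1271-5p (3 libraries) and a control microRNA (3 libraries), all in the same line. The question the study put to the pulldown was which RNAs are bound by each microRNA.

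Heat shock proteins are chaperones that bind unfolded proteins and help them reach or keep their shape. HSP70 proteins take up exposed stretches with the help of J-domain partners such as DNAJB1 and exchange factors such as HSPH1, and HSP90 proteins act later, on kinases and receptors that are nearly folded. HSPD1 and HSPE1 form the folding chamber of mitochondria, and HSPA5 is the HSP70 of the endoplasmic reticulum. The transcription factor HSF1 drives the cytosolic genes through heat shock elements, inverted repeats of a short GAA unit, whereas HSPA5 is best known as a target of the unfolded protein response.

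The duplexes are named after these mature strands (RefSeq, GRCh38.p14), shown because they define the groups, with the seed (bases 2 to 8) in capitals:

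hsa-miR-2355-5p: aUCCCCAGauacaauggacaa

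hsa-miR-1271-5p: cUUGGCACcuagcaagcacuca

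Their seeds differ and coincide at 3 of 7 positions. Transcript sequences were not used here, so the chaperone mRNAs were not searched for seed matches.

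The start regions of the 10 genes were read from RefSeq windows of 300 bases (250 before and 50 after an annotated start; 16 windows, since DNAJB1, HSP90AA1, HSP90AB1 and HSPD1 have several). The search, on both strands, used a heat shock element of 3 units, GAANNTTCNNGAA, and its 2 cores of 2 units, GAANNTTC and TTCNNGAA, both of which the longer motif contains. The 3-unit motif was found in HSP90AA1, HSP90AB1, HSPA8 and HSPD1, 4 of 10 genes, against 0.608% of the 27305 genes with a window. The core GAANNTTC was found in 7 of 10, against 8.21% of all genes, and TTCNNGAA in 4 of 10, the genes with the 3-unit motif, against 9.46% of all genes. HSPH1, HSPE1 and HSPA5 had none of these motifs in these windows. The overlapping HSPD1 matches lay in the window of a start other than its outermost, chr2:197500274. They also lie upstream of the HSPE1 start at chr2:197500379, beyond the 250 bases that the HSPE1 window takes in. HSPA5 had the endoplasmic reticulum stress element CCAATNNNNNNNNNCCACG, found in 0.0916% of genes. A match describes letters only and shows no binding. HSP90AB1 and HSPA8 had a further 3-unit match in the same window, and HSPD1 an overlapping one, which are not marked. DNAJB1 also had the core GAANNTTC alone and is not shown. These stretches are given to show a match of the 3-unit element in each of 4 genes, the 2-unit core alone in HSPA1A and HSPA1B, and the different element of HSPA5, with the match in capitals, on the strand of the gene:

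HSP90AA1, chr14:102087095-102087157, minus strand: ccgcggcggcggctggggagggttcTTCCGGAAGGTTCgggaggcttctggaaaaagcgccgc

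HSP90AB1, chr6:44247806-44247868, plus strand: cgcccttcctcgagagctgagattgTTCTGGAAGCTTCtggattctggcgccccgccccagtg

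HSPA8, chr11:123062154-123062216, minus strand: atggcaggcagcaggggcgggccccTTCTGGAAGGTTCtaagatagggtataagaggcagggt

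HSPD1, chr2:197500043-197500090, minus strand: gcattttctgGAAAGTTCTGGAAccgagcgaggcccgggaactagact

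HSPA1A, chr6:31815412-31815469, plus strand: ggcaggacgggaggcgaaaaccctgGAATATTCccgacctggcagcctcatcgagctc

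HSPA1B, chr6:31827608-31827665, plus strand: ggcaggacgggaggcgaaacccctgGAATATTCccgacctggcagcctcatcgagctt

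HSPA5, chr9:125241366-125241434, minus strand: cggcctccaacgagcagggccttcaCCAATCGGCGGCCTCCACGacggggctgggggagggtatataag

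Total counts ran from 4122875 to 22864693 reads per library, the shallowest being control replicate 2, and a chaperone gene held between 71 and 23919 reads in a library. The 10 genes together took 0.329% and 0.344% of reads in the miR-2355 libraries, 0.268% to 0.317% in the miR-1271 libraries and 0.365% to 0.491% in the control libraries. Levels are given as CPM, a read count relative to the total of its library, scaled by TMM (edgeR's correction for library composition), and a gene was called at an edgeR adjusted p under 0.05 over all genes tested. Control replicate 1 had the lowest level among the controls for 9 of the 10 genes and the highest for HSPA5, so values without it are given where they matter. RNA before the pulldown was not used here. A changed level of a transcript in the cells therefore cannot be told apart from changed recovery.

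In the pulldown with miR-2355, 4 of the 10 genes were lower than with the control (HSP90AA1, HSPH1, HSP90AB1 and HSPE1) and 1 was higher (HSPD1). Over all genes tested, 17.5% were called lower and 12.3% higher, and among genes at least as abundant as HSPE1, the least abundant chaperone row, 22.1% and 17.8%. With miR-1271, 5 were lower (the same 4 genes and HSPD1) and 1 was higher (DNAJB1), against 22.5% lower and 17.6% higher over all genes and 27.6% and 24.5% among the abundant ones. The 10 genes had a median log2 fold change of -0.08 (miR-2355) and -0.27 (miR-1271), beside 0.00 and 0.01 over all genes. The inducible HSP70 genes HSPA1A and HSPA1B, HSPA8 and HSPA5 passed in neither comparison. Both comparisons share the 3 controls.

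**Figure D1:**
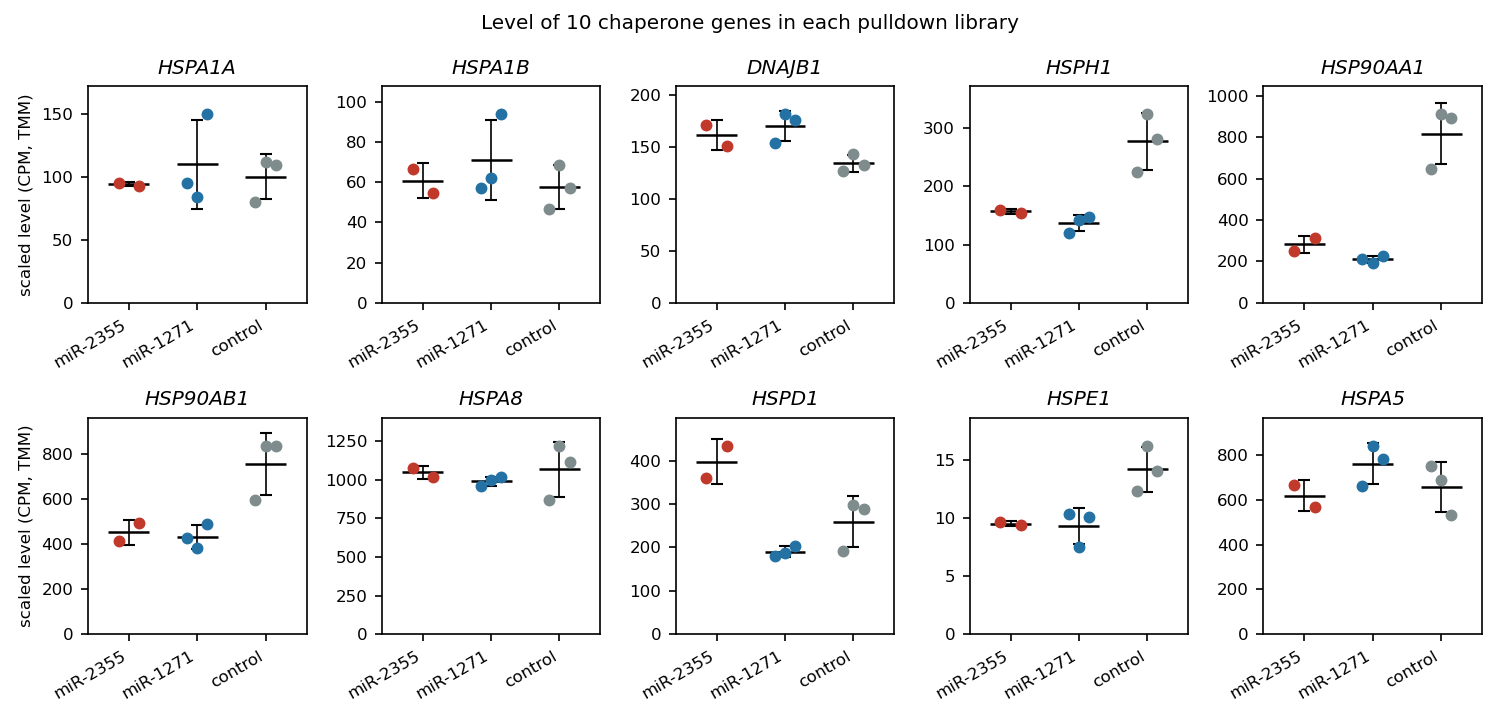
Level of each chaperone gene in TMM-scaled CPM (y axis, from 0) in the 2 miR-2355, 3 miR-1271 and 3 control libraries (x axis); points are libraries, bars the mean and its SD. HSP90AA1, HSPH1, HSP90AB1 and HSPE1 lie lower in all 5 microRNA libraries than in every control library, and HSPD1 is highest in the miR-2355 libraries. Over all genes, 27.8% lay below the control in every miR-2355 library and 26.8% in every miR-1271 library. The share that did so in all 5 was not counted.

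HSP90AA1, the stress-inducible cytosolic HSP90 (ENSG00000080824, chr14:102080742-102139749, minus strand, GRCh38), fell furthest of the 10. Its level was 252.3 and 312 CPM in the miR-2355 libraries, 211, 193 and 227 CPM in the miR-1271 libraries, and 647, 911 and 895 CPM in the control libraries. Every microRNA library lay below every control library, and the miR-1271 libraries lay below both miR-2355 libraries. Over all genes, 27.8% lay below the control in every miR-2355 library and 26.8% in every miR-1271 library. The log2 fold change was -1.53 ± 0.18 with miR-2355 (SE; edgeR adjusted p = 7.31e-06) and -1.96 ± 0.16 with miR-1271 (SE; edgeR adjusted p = 9.67e-08), which is 2.90-fold and 3.88-fold lower. Only 3.04% and 1.48% of tested genes had a lower fold change in these comparisons. Both calls held under all 17 alternatives run for them. RefSeq places WDR20 over 327 bases of the HSP90AA1 span.

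HSP90AB1, the constitutive cytosolic HSP90 (ENSG00000096384, chr6:44246194-44253883, plus strand), fell less. It stood at 413 and 491 CPM with miR-2355, at 426, 380.3 and 488 CPM with miR-1271, and at 597, 836 and 835 CPM with the control. Its groups did not overlap with the control either, although control replicate 1 lay nearest to the microRNA libraries. The log2 fold change was -0.74 ± 0.18 (SE; edgeR adjusted p = 0.00471) with miR-2355 and -0.81 ± 0.16 (SE; edgeR adjusted p = 0.000643) with miR-1271. Without miR-2355 replicate 1 the value with miR-2355 was -0.60 and did not pass (edgeR adjusted p = 0.0938).

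The ratio of HSP90AA1 to HSP90AB1 reads within a library does not depend on scaling and was nearly constant inside each group. It was 0.611 and 0.635 in the miR-2355 libraries, 0.496, 0.507 and 0.465 in the miR-1271 libraries, and 1.08, 1.09 and 1.07 in the control libraries. The means were 0.623 ± 0.017 (SD, n = 2), 0.489 ± 0.022 (SD, n = 3) and 1.08 ± 0.0094 (SD, n = 3), with no overlap between any groups. The mean ratio was 0.576 times the control ratio with miR-2355 and 0.452 times with miR-1271. The exact permutation p (two-sided) was 0.2 for miR-2355 and 0.1 for miR-1271 against control, in each case as small as these group sizes can give, and 0.3 for each after adjustment over the 9 ratio comparisons made. Gene lengths differ, so the ratio itself does not give the relative abundance of the mRNAs. How reads that also fit copies of either gene were counted is not given in the sources used here, and its bearing on the ratio was not tested.

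**Figure D2:**
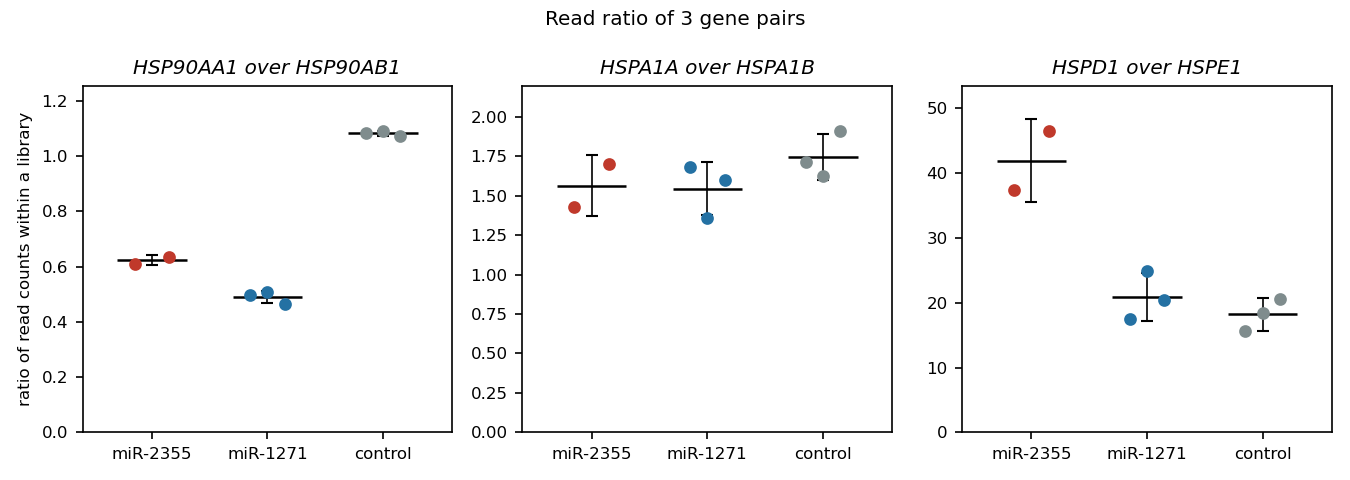
Ratio of read counts within each library (y axis, from 0) for HSP90AA1 over HSP90AB1, HSPA1A over HSPA1B and HSPD1 over HSPE1, by group (x axis); points are libraries, bars the mean and its SD. The HSP90 ratio separates into 3 groups without overlap, the HSP70 ratio overlaps throughout, and the HSPD1 to HSPE1 ratio is high in the miR-2355 libraries.

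HSPA1A (ENSG00000204389) and HSPA1B (ENSG00000204388) encode the inducible cytosolic HSP70 and are near-identical neighbours on chr6 (31815543-31817942 and 31827738-31830254, both on the plus strand, 9795 bases apart). Their start windows, mostly sequence before the start, share 92.03% of aligned bases, and the identity of their transcripts was not measured here. The aligner's treatment of reads that fit both genes is not given in the sources used here, so the split between the rows is uncertain. HSPA1A stood at 95.4 and 93.3 CPM with miR-2355, at 95.7, 84.4 and 150.1 CPM with miR-1271, and at 79.9, 111.8 and 109.6 CPM with the control. The groups overlapped, and miR-1271 replicate 3 stood above all other libraries. HSPA1B showed the same high library, with 66.9 and 54.8 CPM for miR-2355, 57.0, 62.2 and 94.0 CPM for miR-1271 and 46.7, 68.9 and 57.4 CPM for the control.

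Neither gene passed. The log2 fold change of HSPA1A was -0.08 with miR-2355 (95% interval -0.51 to 0.34; edgeR adjusted p = 0.799) and 0.14 with miR-1271 (-0.24 to 0.53; edgeR adjusted p = 0.562). That of HSPA1B was 0.10 (-0.32 to 0.51; edgeR adjusted p = 0.748) and 0.32 (-0.05 to 0.70; edgeR adjusted p = 0.159). Summed into 1 row, the copies gave -0.02 ± 0.20 (SE; edgeR adjusted p = 0.955) and 0.20 ± 0.18 (SE; edgeR adjusted p = 0.385). The ratio of HSPA1A to HSPA1B reads overlapped between all groups, with means of 1.56 ± 0.19 (SD, n = 2) for miR-2355, 1.54 ± 0.17 (SD, n = 3) for miR-1271 and 1.75 ± 0.15 (SD, n = 3) for the control. The exact permutation p (two-sided) against the control was 0.4 for miR-2355 and 0.2 for miR-1271. The 95% intervals of both copies lay within 1 log2 unit of 0 in both comparisons, a range that the change of HSP90AA1 exceeded.

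HSPH1, the HSP110 exchange factor that restarts the HSP70 cycle (ENSG00000120694, chr13:31134973-31162388, minus strand), stood at 159.5 and 154 CPM with miR-2355, at 120.4, 143 and 147 CPM with miR-1271, and at 225, 324 and 282 CPM with the control. All microRNA libraries lay below all controls, as 27.8% of all genes did with miR-2355 and 26.8% with miR-1271. HSPH1 fell by 0.82 on the log2 scale with miR-2355 (SE 0.16; edgeR adjusted p = 0.000947) and by 1.02 with miR-1271 (SE 0.14; edgeR adjusted p = 2.95e-05), and both calls held under all 17 alternatives.

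DNAJB1, the J-domain partner that hands clients to HSP70 (ENSG00000132002, chr19:14514769-14560391, minus strand), was called higher with miR-1271 and not with miR-2355, and the difference between the microRNAs did not pass (-0.08, edgeR adjusted p = 0.773). Its level was 172 and 151 CPM with miR-2355, 154, 182 and 176 CPM with miR-1271, and 127, 143 and 133 CPM with the control, and no microRNA library overlapped a control library. The rise passed with miR-1271 at 0.35 ± 0.12 on the log2 scale (SE; edgeR adjusted p = 0.0268). The value with miR-2355 was 0.27 ± 0.13 (SE; edgeR adjusted p = 0.133). The call with miR-1271 held under 11 of 17 alternatives and was lost without miR-1271 replicate 2 or 3 or control replicate 1 or 3 (0.30 to 0.34, edgeR adjusted p of 0.0575 to 0.0856), without the low-count filter (0.32, edgeR adjusted p = 0.0947) and on library totals alone (0.19, edgeR adjusted p = 0.226). Over all genes, 24.9% lay above the control in every miR-2355 library and 23.1% in every miR-1271 library, so the lack of overlap is frequent. RefSeq places TECR over 32666 bases of the DNAJB1 span, and the strand setting of the counting is not given in the sources used here.

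HSPA8 (ENSG00000109971), the constitutive HSC70 and the most abundant of the 10 rows by reads, was close in all groups. It stood at 1080.2 and 1021 CPM with miR-2355, at 958, 1000.2 and 1017 CPM with miR-1271, and at 871, 1221 and 1115 CPM with the control. The control libraries spanned the range of both microRNA groups. The log2 fold change was -0.02 (95% interval -0.37 to 0.32; edgeR adjusted p = 0.930) with miR-2355 and -0.11 (-0.41 to 0.20; edgeR adjusted p = 0.585) with miR-1271. The small RNA genes SNORD14C, SNORD14D and SNORD14E lie inside the HSPA8 span (chr11:123057489-123062462, minus strand).

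**Figure D3:**
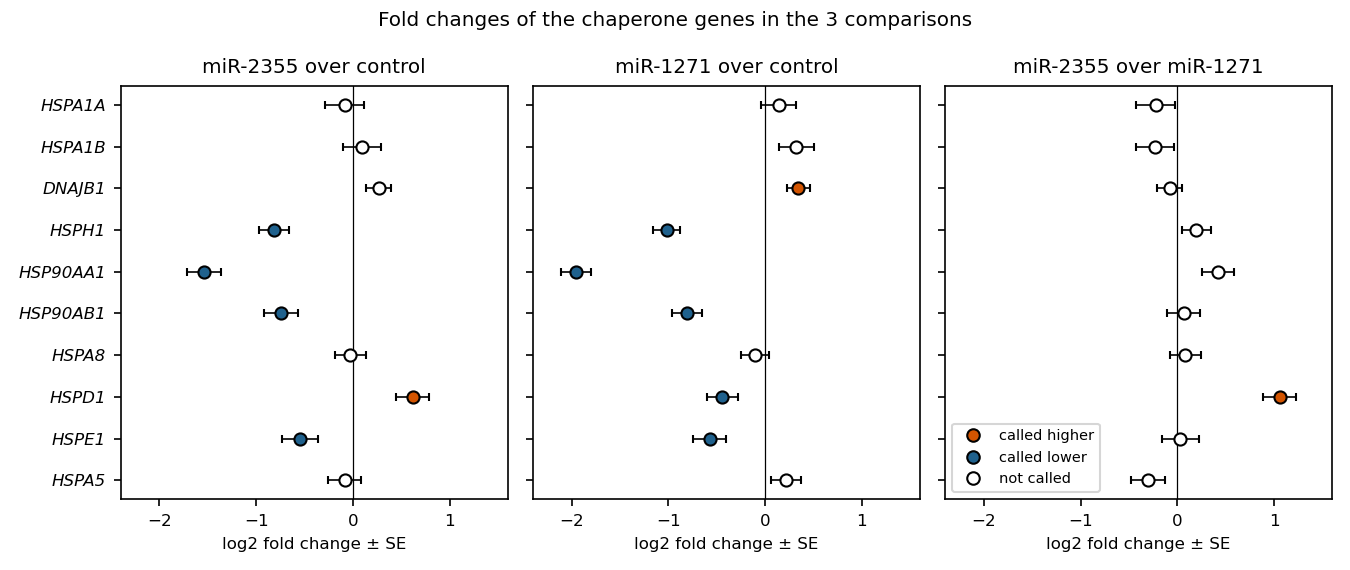
Log2 fold change of each chaperone gene with its standard error (x axis) in the 3 comparisons; orange points were called higher, blue lower, and white ones not called at an edgeR adjusted p under 0.05. HSP90AA1 lies furthest to the left in both comparisons with the control, at -1.53 and -1.96, and HSPD1 is the only gene called between the microRNAs, at 1.06.

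The mitochondrial pair HSPD1 (ENSG00000144381) and HSPE1 (ENSG00000115541), HSP60 and its HSP10 lid, start 105 bases apart on opposite strands of chr2 (197486584-197500274 and 197500379-197503449). HSPD1 stood at 361 and 434 CPM with miR-2355, at 181, 186 and 205 CPM with miR-1271, and at 191, 298 and 289 CPM with the control. Both miR-2355 libraries lay above the other 6, while the miR-1271 libraries overlapped control replicate 1. HSPD1 rose with miR-2355, by 0.62 ± 0.17 on the log2 scale (SE; edgeR adjusted p = 0.0123), and fell with miR-1271, at -0.44 ± 0.16 (SE; edgeR adjusted p = 0.0338). The rise did not pass without miR-2355 replicate 2 (0.48, edgeR adjusted p = 0.120). The call with miR-1271 held under 10 of 17 alternatives, and not without any 1 miR-1271 library or without control replicate 2 or 3 (-0.48 to -0.34, edgeR adjusted p of 0.0580 to 0.146). It was also lost at equal depth, with every library thinned to the total of the shallowest (-0.39, edgeR adjusted p = 0.0623), and with upper-quartile factors (-0.34, edgeR adjusted p = 0.0858). Without control replicate 1 the values were 0.44 (edgeR adjusted p = 0.0235) and -0.62 (edgeR adjusted p = 0.000744).

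HSPE1 had 71 to 301 reads per library. Its level was 9.67 and 9.36 CPM with miR-2355, 10.35, 7.52 and 10.06 CPM with miR-1271, and 12.3, 16.2 and 14.03 CPM with the control. All microRNA libraries lay below all controls, as 27.8% of all genes did with miR-2355 and 26.8% with miR-1271. HSPE1 fell with miR-2355 by 0.54 on the log2 scale (SE 0.19; edgeR adjusted p = 0.0373) and with miR-1271 by 0.57 (SE 0.17; edgeR adjusted p = 0.0141). The call with miR-2355 held under 6 of 17 alternatives. It was lost without miR-1271 replicate 1 or 3 or control replicate 2 or 3 (edgeR adjusted p of 0.0538 to 0.0936) and with DESeq2 (adjusted p = 0.0657). The same held with upper-quartile factors (edgeR adjusted p = 0.0660), without the low-count filter (edgeR adjusted p = 0.0614), in a fit of only the 2 groups compared (edgeR adjusted p = 0.0528) and with replicate number as a block (edgeR adjusted p = 0.107). Nor was it kept without either miR-2355 library, which leaves a single one (-0.55 without replicate 1, -0.52 without replicate 2). The call with miR-1271 held under 16 and was lost without miR-1271 replicate 2 (-0.43, edgeR adjusted p = 0.0777). The whole HSPE1 span lies inside HSPE1-MOB4, a read-through gene, and RefSeq lists 28 numbered HSPE1 pseudogenes, 22 of HSPD1 and 20 of HSPA8. SNORA105B lies over 116 bases of the HSPD1 span. How reads were divided among such rows bears on these levels and was not tested. Only names made of a gene's symbol, P and a number were counted, which leaves out copies of HSP90AA1 and HSP90AB1 named in another form.

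The ratio of HSPD1 to HSPE1 reads was 37.3 and 46.4 in the miR-2355 libraries, 17.45, 24.8 and 20.3 in the miR-1271 libraries, and 15.6, 18.4 and 20.6 in the control libraries. The miR-2355 libraries lay apart from the other 6, with a mean of 41.9 ± 6.4 (SD, n = 2) against 18.2 ± 2.5 (SD, n = 3) in the control, a 2.30-fold difference (exact permutation p = 0.2, two-sided, as small as 2 against 3 libraries can give; 0.3 adjusted over 9). The ratio with miR-1271 was 20.9 ± 3.7 (SD, n = 3) and overlapped the control (exact permutation p = 0.5, two-sided; 0.562 adjusted over 9).

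HSPA5, the endoplasmic reticulum HSP70 also called BiP (ENSG00000044574, chr9:125234853-125241343, minus strand), stood at 668 and 570.2 CPM with miR-2355, at 662, 843 and 784 CPM with miR-1271, and at 751, 689 and 532 CPM with the control. The groups overlapped, and control replicate 1 was the highest control, unlike for the other 9 genes. The log2 fold change was -0.09 (95% interval -0.45 to 0.28; edgeR adjusted p = 0.751) with miR-2355 and 0.22 (-0.11 to 0.54; edgeR adjusted p = 0.278) with miR-1271.

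**Figure D4:**
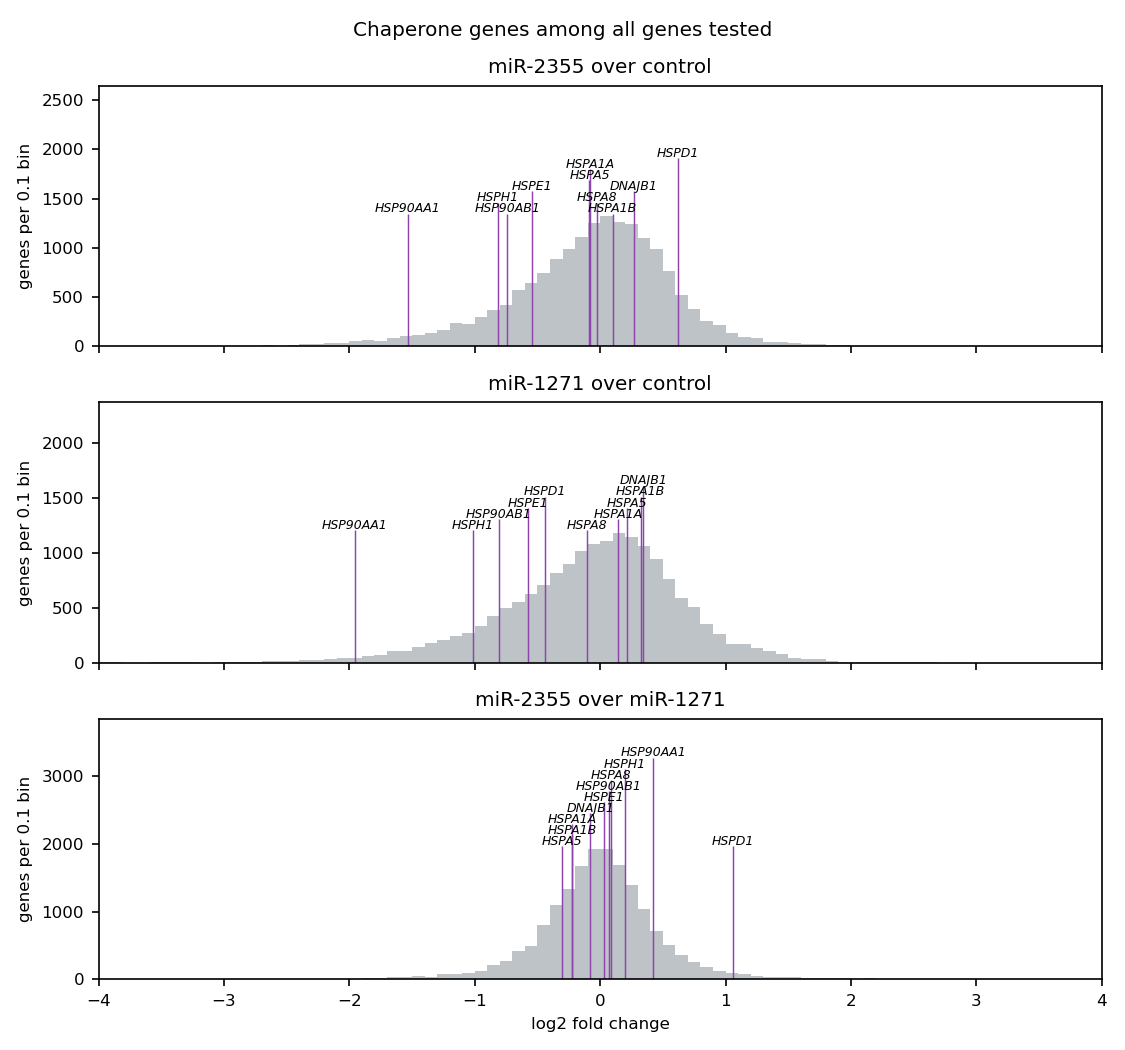
Number of genes per bin of 0.1 log2 units (y axis) by log2 fold change (x axis, -4 to 4) over the 17351 genes tested in each comparison, with purple lines at the 10 chaperone genes. HSP90AA1 lies in the left tail of both comparisons with the control, and HSPD1 in the right tail between the microRNAs, where 98.1% of genes had a lower value.

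Between the microRNAs 1 of the 10 genes differed, HSPD1, against 3.50% of all genes called higher and 2.65% called lower with miR-2355. Its log2 difference was 1.06 ± 0.17 (SE; edgeR adjusted p = 0.00192), or 2.09-fold higher with miR-2355, and it passed under all 17 alternatives. HSP90AA1 was next, at 0.42 (95% interval 0.07 to 0.78; edgeR adjusted p = 0.140), with both miR-2355 libraries above all miR-1271 libraries. It passed in a fit of the 2 microRNA groups alone (0.42, edgeR adjusted p = 0.0429) and without control replicate 1 (0.42, edgeR adjusted p = 0.0490). HSPH1 and HSPA8 were also higher in every miR-2355 library, at 0.20 (-0.13 to 0.52; edgeR adjusted p = 0.478) and 0.08 (-0.26 to 0.43; edgeR adjusted p = 0.812), where 21.1% of all genes showed such a separation. The 9 genes that did not pass had intervals within 1 log2 unit of 0, among them HSP90AB1 at 0.07 (-0.30 to 0.43) and HSPE1 at 0.03 (-0.37 to 0.43).

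Of the 4 genes with a 3-unit heat shock element in a start window, HSP90AA1 and HSP90AB1 fell with both microRNAs. HSPD1 was called higher with miR-2355 (the call held under 16 of 17 alternatives) and lower with miR-1271 (held under 10 of 17). HSPA8 passed in neither comparison with the control. HSPH1, HSPE1 and HSPA5 had no heat shock element match in these windows. Of them, HSPH1 and HSPE1 were called lower with both (HSPE1 with miR-2355 under 6 of 17 alternatives), and HSPA5 passed in neither comparison. HSPA1A, HSPA1B and DNAJB1 had the 2-unit core alone. HSPA1A and HSPA1B passed in neither comparison, and DNAJB1 was called higher with miR-1271 only (under 11 of 17 alternatives). The HSPD1 matches lie upstream of HSPE1 just beyond the HSPE1 window, so the sorting of HSPD1 and HSPE1 depends on the window length. Whether the element bears on the recovered levels was not tested.

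**Figure D5:**
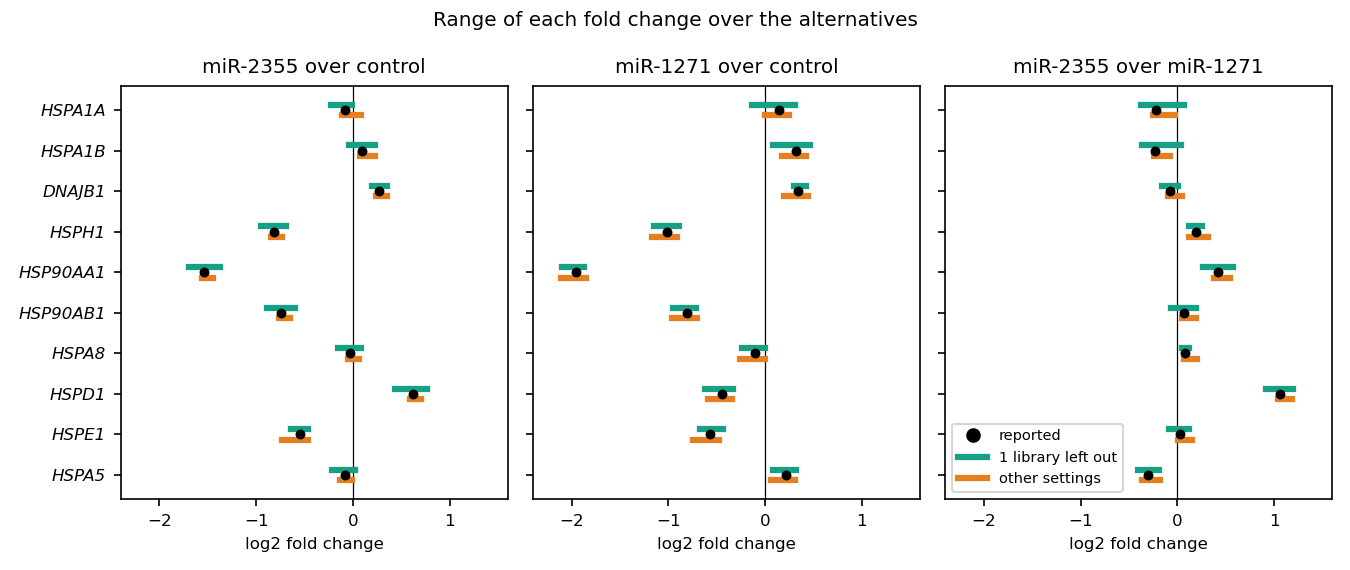
Reported log2 fold change (black point), its range on leaving out 1 library (green) and its range over the other settings (orange) for each chaperone gene (y axis) in the 3 comparisons; x axis, log2 fold change. Against the control, the ranges of HSP90AA1, HSPH1, HSP90AB1, HSPE1, HSPD1 and DNAJB1 stay on 1 side of 0, and those of HSPA1A, HSPA1B, HSPA8 and HSPA5 reach across it with miR-2355.

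By a rule on likeness, the non-member rows with the most similar log2 CPM over the 8 libraries were sought among 10211 rows with a mean log2 CPM of at least 3. For HSPA1A the best 5 had Pearson r of 0.894 to 0.934, and none of them was called against the control with either microRNA. For the mean of the 10 chaperone genes the best 5 had r of 0.959 to 0.981. Of these 5, 2 were called lower in the miR-2355 comparison, 4 in the miR-1271 comparison and 1 in neither. Over all genes tested, 17.5% and 22.5% were called lower. The 2 called in both are given: the closest, ENSG00000048162, fell by 0.48 with miR-2355 (edgeR adjusted p = 0.0262) and by 0.65 with miR-1271 (edgeR adjusted p = 0.00147), and ENSG00000053372 fell by 0.84 (edgeR adjusted p = 0.00233) and 1.09 (edgeR adjusted p = 6.72e-05). The rows were chosen by likeness over these same libraries, so their fold changes and calls follow largely from the choice and are no separate result. The libraries share group and depth differences, so r is a description only, and no source used here gives names for these IDs.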

How the data were processed

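The authors deposited raw read counts per Ensembl gene ID, 1 column per library. Per the submitters' processing notes, BWA and featureCounts were used with the builds hg38 and GRCh38. No source used here states their versions, which annotation was counted, whether strand was used or how multi-mapping reads were handled. The chaperone genes and the lists were chosen with earlier results of these data known. Of the IDs, 0 matched the RefSeq gene table, so members were named by the rule that lists them, other chaperone and cell type marker lists could not be applied, and only the members and 2 further IDs are printed.

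Counts were fitted with edgeR 4.0.16 in R 4.3.3: filterByExpr, TMM, and glmQLFit with 1 mean per group over all 8 libraries. Contrasts used glmQLFTest with Benjamini-Hochberg adjustment over 17351 genes. SE is the fold change over the square root of F. The fit was also run on simulated data with 200 changed genes and a spread common to all genes. That setting cannot show how the fit does where the spread differs by gene. Alternatives included DESeq2 1.42.0. Ratios were compared with exact permutation tests (scipy 1.17.1). RefSeq sequences are of GRCh38.p14. Replicates of a group differed beyond counting noise. The labels name no separate cultures, so p-values refer to the spread among these libraries, which may be technical.

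The rule for named genes took all 10 members, at most 4 genes per pathway list, and the 5 rows most like HSPA1A and most like the members' mean.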

Additional observations from a re-analysis of the deposited data

Results flagged for a closer look

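HSPD1 is listed because the effects of the microRNAs over the same controls differed in the direct comparison: 0.62 on the log2 scale with miR-2355 and -0.44 with miR-1271, a difference of 1.06 (edgeR adjusted p = 0.00192). Both miR-2355 libraries lay above all 3 miR-1271 libraries. No explanation was tested.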

How the results depend on the processing

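HSP90AA1 and HSPH1 against the control, and HSPD1 between the microRNAs, kept direction and call under all 17 alternatives. The count of chaperone genes higher with miR-1271 than with the control was 0 on library totals alone, 0 without the low-count filter and 0 at a fold minimum of 1.5, which also left 3 lower. Upper-quartile factors gave 2 higher with miR-2355 than with the control, and a fit of only the 2 microRNA groups gave 2 higher with miR-2355 than with miR-1271. On leaving out 1 library at a time, 0 to 1 genes were higher and 2 to 4 lower with miR-2355 over control, 0 to 1 higher and 3 to 5 lower with miR-1271 over control, and 1 to 2 higher with miR-2355 over miR-1271. The lowest counts for miR-2355 came without miR-2355 replicate 1 (2 lower) or 2 (0 higher), and for miR-1271 without miR-1271 replicate 2 (3 lower) or without miR-1271 replicate 2 or 3 or control replicate 1 or 3 (0 higher). The cause was not tested. Same-numbered libraries did not deviate together (correlations of -0.10 to 0.02 across genes), and with the replicate block HSPE1 with miR-2355 was at -0.51 (edgeR adjusted p = 0.107), the only chaperone call it changed. Upper-quartile factors raised the share of higher genes among all calls to 52.03% with miR-2355 (41.1% with TMM) and 54.6% with miR-1271 (43.9% with TMM). Library totals alone gave 27.95% with miR-1271, where the median over all genes became -0.14 (log2), and 82.7% between the microRNAs (57.0% with TMM), where it became 0.12. Between the microRNAs, 608 of all genes were higher and 459 lower as reported, 1252 and 261 on library totals alone, and 320 and 217 with the replicate block. At equal depth HSPD1 with miR-1271 was the only chaperone call lost (-0.39, edgeR adjusted p = 0.0623).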
